A study of Drosophila melanogaster with 6 samples.

Results

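A group of 10 genes that encode the main proteins of the Drosophila basement membrane and the enzymes that cut it was followed in whole embryos at about stage 14. The genes were chosen by name: the collagen IV chain genes vkg and Col4a1, the laminin chain genes LanA, LanB1 and LanB2, the nidogen gene Ndg, the perlecan gene trol, SPARC, and the matrix metalloproteinase genes Mmp1 and Mmp2. All 10 of 10 were found among the 15135 features of the deposited table, with Col4a1 listed there as Cg25C and SPARC as BM-40-SPARC. The samples were 3 libraries of polyadenylated RNA from embryos labelled as spo mutants and 3 from embryos labelled as wild type, each from whole embryos. The spo gene encodes a cytochrome P450 of ecdysone synthesis, and the study was made to find genes downstream of that steroid hormone. The sources used here do not give the spo allele, the strain behind the wild-type label, embryo age in hours or the number of embryos per library. The labels call the libraries replicates without naming separate collections, so each p-value reflects only the spread among these 6 libraries, which may be partly technical. Values are TPM, a level per gene length, so that genes may be compared roughly with each other within a library. For most genes that length covers all annotated exons, which can lower the level of genes with many alternative transcripts. In RNA from whole embryos, fewer cells of a type and less RNA per cell cannot be told apart.

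The basement membrane is a thin sheet of extracellular matrix that lies under epithelia and around muscles, nerves, fat body and gut. Laminin trimers of an alpha, a beta and a gamma chain assemble first at cell surfaces, collagen IV trimers form a second network, and nidogen and perlecan bind to both. In the fly embryo, migrating blood cells (hemocytes) are a known source of collagen IV and laminin, and the fat body becomes the main source of collagen IV in larvae. Matrix metalloproteinases cleave matrix proteins when tissues are reshaped.

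Rebuilt library totals were 50382342 to 72874892 reads in spo libraries and 55722912 to 73953095 in wild-type libraries. The targeted gene, spo, was scarce in both genotypes, at 0.610, 0.470 and 0.306 TPM in spo libraries and 0.944, 0.726 and 0.696 TPM in wild-type libraries, on 24 to 33 and 43 to 59 reads. All 3 spo libraries lay below the wild-type libraries (log2 difference -0.29, SE 0.09, limma adjusted p = 0.0434 when fitted with all features). This gene lay under the filter of the main fit. At such a low level the pseudocount of 1 shrinks the log2 difference, and mean TPM was 41.4% lower in spo libraries. One library stood apart from the other mutants. Hr46, a nuclear receptor gene of the ecdysone cascade, was at 4.73, 33.7 and 4.72 TPM in spo replicates 1, 2 and 3, against 139.9, 138 and 135 TPM in wild-type replicates 1, 2 and 3, so spo replicate 2 lay nearest to wild type by this gene. Transcripts supplied by the mother were also far apart between genotypes: the summed level of 8 such genes was 145 to 185 TPM in spo libraries and 7.82 to 8.42 TPM in wild-type libraries. By that sum spo replicate 2, at 185 TPM, lay farthest from wild type. Over all tested features its Pearson correlations with wild-type libraries, on log2(TPM + 1), were 0.9744 to 0.9749. Those of spo replicates 1 and 3 were 0.9695 to 0.97. Embryo age and genotype cannot be told apart in this design, and the part of these library features in the results below was not tested.

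The genes for laminin and for the metalloproteinase Mmp2 were lower in spo embryos by 8.38% to 17% of the wild-type level. Those for collagen IV, nidogen, SPARC and Mmp1 did not pass the test. Whether these sets of genes differ from each other was not tested. The 95% interval of Col4a1, -0.24 to 0.03 on the log2 scale, took in the differences of LanB1 (-0.13) and LanB2 (-0.20). Of the 10 genes, 5 fell (LanA, LanB1, LanB2, trol and Mmp2), 0 rose and 5 did not pass the threshold (limma on log2(TPM + 1), adjusted p below 0.05 over all 10019 features tested). Over all tested features 61.7% passed the threshold, 27.9% as lower and 33.9% as higher in spo libraries. The 50% of the 10 genes that passed in either direction lay near that background. The 50% that fell lay above the 27.9%, and whether these shares differ was not tested. The median log2 difference of the 10 genes was -0.12, beside 0.02 over all tested features. All 3 spo libraries lay below all 3 wild-type libraries for 7 of the 10 genes, which held for 30.8% of all tested features. Leaving out any 1 library, spo replicate 2 included, left 4 of the 10 past the threshold, all lower, with trol no longer among them. Tested against a log2 change of 0.5, 0 of them passed.

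**Figure D1:**
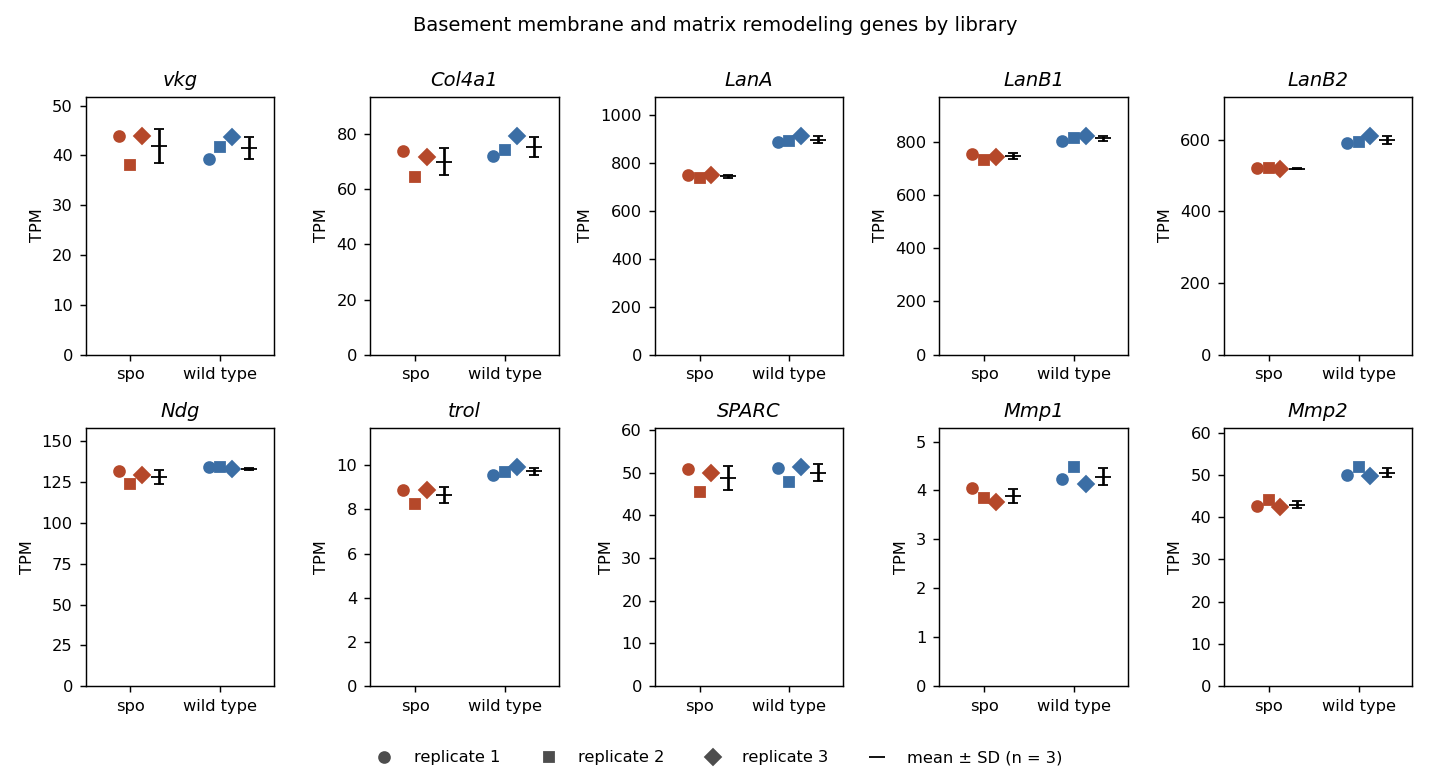
TPM (vertical axis, from 0) of each gene in each library, spo on the left and wild type on the right of each panel. Symbols mark the replicate number and the black bar the mean ± SD of 3 libraries. LanA, LanB1, LanB2, trol, Ndg, Mmp1 and Mmp2 had all spo libraries below all wild-type libraries, and vkg, Col4a1 and SPARC overlapped.

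Laminin genes had by far the highest levels. LanA encodes the alpha chain of one laminin trimer, and its gene (3L, 6203831 to 6218022, minus strand, dm6 coordinates) carries 11690 bases of exon. It stood at 748, 737 and 749 TPM in spo libraries, against 888, 891 and 913 TPM in wild-type libraries. The groups did not overlap, and the gap between them was several times the spread within either. Mean levels were 745 ± 6.74 TPM in spo and 897 ± 13.9 TPM in wild type (SD, n = 3 each), a log2 difference of -0.27 (SE 0.02, limma adjusted p = 3.39e-05). Of the 2792 features called lower in spo, 51.1% fell more steeply, so that the fall of LanA, the largest of the 10, was close to the median called fall (-0.28).

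LanB1, the beta chain gene (2L, 7811438 to 7820771, plus strand), stood at 756, 733 and 744 TPM in spo libraries and at 803, 813 and 822 TPM in wild-type libraries. LanB2, the gamma chain gene (3L, 9614914 to 9623980, plus strand), stood at 521, 521 and 518 TPM in spo libraries and at 591, 594 and 611 TPM in wild-type libraries. Neither gene overlapped between genotypes. The log2 difference was -0.13 for LanB1 (SE 0.02, limma adjusted p = 0.00132) and -0.20 for LanB2 (SE 0.02, adjusted p = 0.000113). Among spo libraries LanB2 varied least of the 10 genes, with a coefficient of variation of 0.351%, near the counting error of 0.295% to 0.386% that its reads allow.

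Summed over the 3 laminin chains, the level was 2026, 1991 and 2011 TPM in spo libraries and 2281, 2298 and 2346 TPM in wild-type libraries. These 3 genes held 85.4% ± 0.443 of the summed TPM of the 10 genes in spo libraries and 86.4% ± 0.0117 in wild-type libraries (SD, n = 3 each). By mean level LanB1 ranked 176 and LanA 177 of 10019 tested features in spo libraries, and LanA ranked 156 and LanB1 167 in wild-type libraries.

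Ratios between the chains of the trimer lay apart by genotype but did not pass the threshold, which this test cannot reach. For the TPM of single features lying apart was common, since 6852 of the 10019 tested did not overlap between genotypes. The share among ratios of other gene pairs was not computed. LanA and LanB1 were level with each other in spo libraries, with ratios of 0.989, 1 and 1.01, and LanA was the higher in wild-type libraries, with ratios of 1.11, 1.10 and 1.11. All 3 spo ratios lay below all 3 wild-type ratios (mean log2 difference -0.14, two-sided exact permutation p = 0.1, adjusted p = 0.117 over 7 ratios). With 3 libraries against 3, 0.1 is the smallest p that this test can give. The ratio of LanB2 over LanB1 was 0.689, 0.710 and 0.696 in spo libraries and 0.735, 0.731 and 0.744 in wild-type libraries, again without overlap (log2 difference -0.08, exact permutation p = 0.1). wb encodes the other laminin alpha chain of the fly. It was at 49.8 ± 0.541 TPM in spo and 57.8 ± 0.203 TPM in wild type and fell with LanA (log2 difference -0.21, SE 0.02, limma adjusted p = 0.000177). For each LanA transcript there were 0.0669 ± 0.000208 of wb in spo libraries and 0.0644 ± 0.00105 in wild-type libraries (SD, n = 3 each, exact permutation p = 0.1).

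**Figure D2:**
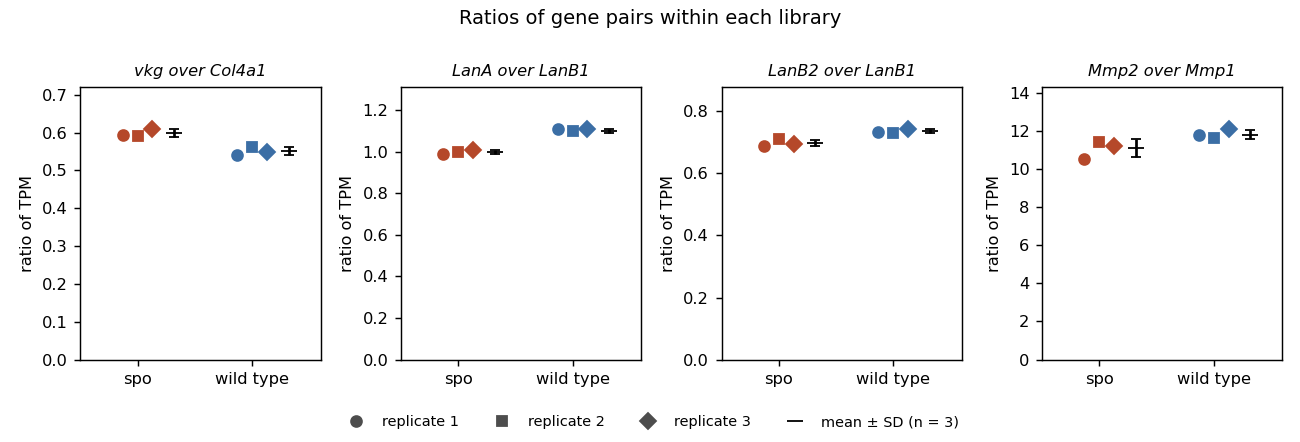
Ratio of the TPM of 2 genes within each library (vertical axis, from 0), spo on the left and wild type on the right, with symbols for the replicate number and black bars for the mean ± SD of 3 libraries. The vkg to Col4a1 ratio was higher in all 3 spo libraries, and the other 3 ratios were lower in all 3 spo libraries.

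Collagen IV genes showed no difference that passed the test. The genes vkg (the alpha 2 chain, 2L, 5012144 to 5028191, minus strand) and Col4a1 (the alpha 1 chain, 2L, 5029609 to 5037279, plus strand) lie head to head, with 1417 bases between their annotated ends. vkg stood at 43.9, 38.1 and 43.8 TPM in spo libraries and at 39.2, 41.7 and 43.6 TPM in wild-type libraries. Col4a1 stood at 73.8, 64.4 and 71.7 TPM in spo libraries and at 72.3, 74.2 and 79.4 TPM in wild-type libraries. Both genes overlapped between genotypes, and both were lowest of all 6 libraries in spo replicate 2. The log2 difference was 0.01 for vkg (95% interval -0.14 to 0.16, limma adjusted p = 0.881) and -0.10 for Col4a1 (95% interval -0.24 to 0.03, adjusted p = 0.148). Without spo replicate 2 the difference was 0.08 for vkg (adjusted p = 0.162) and -0.05 for Col4a1 (adjusted p = 0.343). The sign of the vkg difference turned with median-of-ratios scaling, so no direction is given for it.

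Both collagen genes varied more between libraries of the same genotype than their reads account for. The coefficient of variation of vkg was 7.94% in spo and 5.30% in wild-type libraries, where counting alone allows at most 1.27%. Both moved together, however: the ratio of vkg over Col4a1 varied by 1.75% in spo libraries and 1.77% in wild-type libraries. That ratio was 0.594, 0.591 and 0.610 in spo libraries and 0.542, 0.562 and 0.550 in wild-type libraries. It was higher in all 3 spo libraries (mean log2 difference 0.12, exact permutation p = 0.1, adjusted p = 0.117).

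By the distance between profiles over the 6 libraries (log2(TPM + 1), each gene centred on its own mean), the tested genes most like the mean of vkg and Col4a1 were CG11418 (now MTPAP, distance 0.0401), CG31030 (now VhaAC45RP, 0.0580), sta (0.0630) and CG12822 (0.0641). The median distance of the other tested genes was 0.345. The named genes were picked as the nearest, so lying below such a median was fixed in advance. CG11418 stood at 20.7, 17.9 and 20.8 TPM in spo libraries and at 19.0, 19.9 and 21.5 TPM in wild-type libraries, with the same dip in spo replicate 2. For LanB1 and LanB2 the most alike were CG3209 (now Gpat4, distance 0.0219), Rpn7 (0.0252) and CG5934 (0.0272), against a median of 0.355.

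Ndg and trol encode the linker proteins nidogen and perlecan. Ndg (2R, 10313891 to 10322104, plus strand) stood at 132, 124 and 130 TPM in spo libraries and at 134, 134 and 133 TPM in wild-type libraries. The spo libraries were all lower, but by a mean of only 3.74%, and the log2 difference of -0.06 did not pass (95% interval -0.12 to 0.01, limma adjusted p = 0.116). With median-of-ratios scaling it passed (-0.08, adjusted p = 0.0396). Set against the laminin gamma chain, which nidogen binds, the level of Ndg was 0.247 ± 0.00843 of that of LanB2 in spo libraries and 0.223 ± 0.00472 in wild-type libraries (SD, n = 3 each, log2 difference 0.15, exact permutation p = 0.1).

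Perlecan, a large heparan sulfate proteoglycan, was represented by few transcripts per length. trol (X, 2470460 to 2545427, minus strand) has 20674 bases of exon and 25 annotated transcripts, which one value per gene cannot tell apart. It stood at 8.86, 8.25 and 8.88 TPM in spo libraries and at 9.55, 9.69 and 9.90 TPM in wild-type libraries. The groups did not overlap, and trol fell by 0.15 on the log2 scale (SE 0.05, limma adjusted p = 0.0331). That call was lost when any 1 of the 6 libraries was left out, with adjusted p from 0.0519 to 0.0991, 0.0614 without spo replicate 2.

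SPARC encodes a collagen-binding glycoprotein that hemocytes secrete (3R, 26869238 to 26871995, minus strand). It stood at 50.9, 45.5 and 49.8 TPM in spo libraries and at 51.0, 47.7 and 51.2 TPM in wild-type libraries. The genotypes overlapped, with spo replicate 2 lowest. Its log2 difference was -0.04 (95% interval -0.15 to 0.08, limma adjusted p = 0.55) and 0.01 without spo replicate 2.

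**Figure D3:**
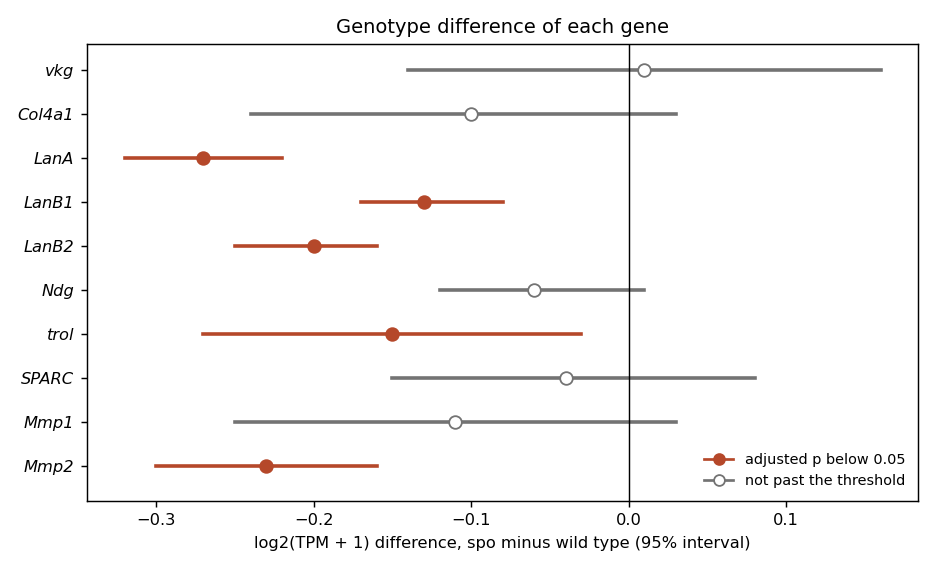
Difference in log2(TPM + 1) of each gene, spo minus wild type (horizontal axis), with its 95% interval from limma. Filled red points passed an adjusted p of 0.05 and open grey points did not. LanA had the lowest value at -0.27 and vkg the highest at 0.01.

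Among the proteases, Mmp2 fell and Mmp1 did not pass the test. Mmp2, an enzyme held at the cell surface, spans 2R, 9611139 to 9683858, minus strand. It stood at 42.6, 44.0 and 42.4 TPM in spo libraries and at 50.1, 51.8 and 49.9 TPM in wild-type libraries, without overlap. Its log2 difference of -0.23 (SE 0.03) passed with a limma adjusted p of 0.00036.

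Mmp1 (2R, 24671294 to 24688184, minus strand) had the lowest level of the 10 genes. It stood at 4.05, 3.85 and 3.77 TPM in spo libraries and at 4.24, 4.47 and 4.14 TPM in wild-type libraries. The spo libraries were all lower, by a mean of 9.15%, close to the 8.38% of LanB1, but the interval of the log2 difference took in 0 (-0.11, 95% interval -0.25 to 0.03, limma adjusted p = 0.151). Its values rest on 426 to 636 reads per library, so that counting error alone was 3.97% to 4.85%, as large as the observed spread of 3.71% in spo and 3.97% in wild-type libraries. Mmp1 also shares 284 exon bases, 5.87% of its exon length, with Pof on the opposite strand, which averaged 30 TPM in spo and 30.5 TPM in wild-type libraries, and the sources used here do not give the strand setting of the authors' counting. For the other genes the exon bases shared with another annotated gene were 287 in Mmp2, 158 in Ndg, 23 in trol and 0 in the remaining 6.

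The ratio of Mmp2 over Mmp1 was 10.5, 11.4 and 11.2 in spo libraries and 11.8, 11.6 and 12.1 in wild-type libraries (log2 difference -0.10, exact permutation p = 0.1). Timp, which encodes the inhibitor of both enzymes, was scarce, at 1.77, 2.66 and 1.65 TPM in spo libraries and 2.13, 1.74 and 1.82 TPM in wild-type libraries. Timp overlapped between genotypes (95% interval of the log2 difference -0.27 to 0.37, limma adjusted p = 0.766). So did its ratio to Mmp1, at 0.521 ± 0.146 in spo and 0.444 ± 0.0557 in wild type (SD, n = 3 each, exact permutation p = 0.7).

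Ordered by mean level in spo libraries, LanB1 and LanA stood level with each other, followed by LanB2, Ndg, Col4a1 and SPARC, then Mmp2 and vkg with overlapping ranges, then trol and Mmp1. In wild-type libraries LanA, LanB1, LanB2, Ndg and Col4a1 followed each other without overlap, Mmp2 and SPARC overlapped, and vkg, trol and Mmp1 came last. Between LanA and Mmp1 the mean level ran from 745 to 3.89 TPM in spo libraries and from 897 to 4.28 TPM in wild-type libraries. The summed level of the 10 genes was 2382, 2318 and 2361 TPM in spo libraries and 2641, 2661 and 2717 TPM in wild-type libraries.

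Relative to the wild-type mean, spo replicate 2 was the lowest of the 3 mutant libraries for 7 of the 10 genes (vkg, Col4a1, LanA, LanB1, SPARC, trol and Ndg), which held for 36.2% of all tested features. For vkg the values were 106%, 91.7% and 106% of the wild-type mean in spo replicates 1, 2 and 3, and for Col4a1 98.1%, 85.6% and 95.3%. The laminin genes and Mmp2 were below the wild-type mean by similar amounts in each mutant library: LanA was at 83.4%, 82.1% and 83.4% and Mmp2 at 84.3%, 86.9% and 83.8%. Hr46, by contrast, was nearest to wild type in that same library.

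**Figure D4:**
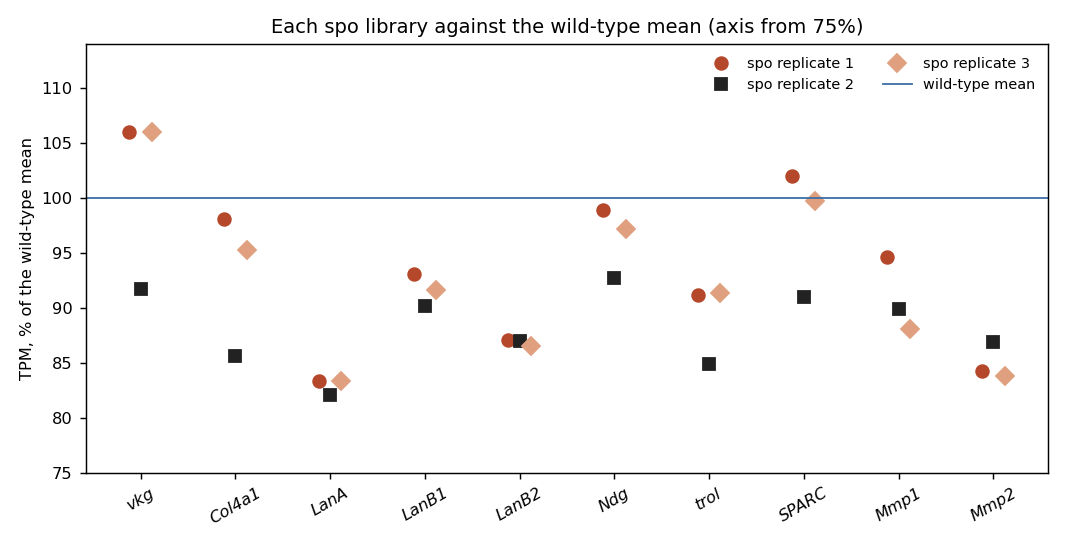
TPM of each gene in each spo library as a percentage of its wild-type mean (vertical axis, which starts at 75%), with the blue line at 100%. In spo replicate 2 (black squares) vkg was at 91.7% and Col4a1 at 85.6%, below the other mutant libraries, while the LanA values lay between 82.1% and 83.4%.

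The authors' deposited table gives the same 5 genes as called at a false discovery rate below 0.05, where 56.2% of the tested features were called. In the authors' deposited table the log2 fold change, positive where spo is higher, was -0.29 for LanA, -0.15 for LanB1, -0.22 for LanB2, -0.18 for trol and -0.25 for Mmp2. For the genes not called, the authors' deposited table lists -0.16 for Mmp1 (false discovery rate 0.0615), -0.12 for Col4a1 (0.14), -0.07 for Ndg (0.227), -0.06 for SPARC (0.446) and -0.01 for vkg (0.971).

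In 5 lists of related matrix genes, 29 of 53 tested genes fell and 11 rose, with a median log2 difference of -0.11. The called share was 75.5%, beside 61.7% over all tested features, of which 27.9% were lower and 33.9% higher. Most of the listed genes for enzymes and transport proteins that prepare matrix proteins for secretion were lower in spo embryos. Of 14 tested genes for collagen modification, secretion and crosslinking, 11 fell, 2 rose and 1 did not pass (median log2 difference -0.23, beside 0.02 over all tested features). Pdi, a protein disulfide isomerase and the beta subunit of prolyl hydroxylase, was at 1603, 1731 and 1616 TPM in spo libraries and at 2831, 2829 and 2902 TPM in wild-type libraries (log2 difference -0.79, SE 0.03, limma adjusted p = 4.25e-06). The collagen lysyl hydroxylase gene Plod was at 204 ± 3.63 TPM in spo and 277 ± 1.58 TPM in wild type, and the collagen prolyl hydroxylase gene PH4alphaEFB at 139 ± 2.70 TPM in spo and 187 ± 4.25 TPM in wild type (SD, n = 3 each). Tango1, which loads collagen at endoplasmic reticulum exit sites, fell as well, to 117 ± 1.17 TPM in spo, against 146 ± 3.19 TPM in wild type.

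In the same list, the coat genes of vesicles leaving the endoplasmic reticulum, Sec23 and Sec24CD, had log2 differences of -0.23 and -0.26, and the cargo receptor gene ergic53 -0.22. Pxn, the gene for peroxidasin, which crosslinks collagen IV and is also counted among the secreted proteins and hemocyte markers below, was at 30.5 ± 1.19 TPM in spo and 38.6 ± 0.606 TPM in wild type (log2 difference -0.33, limma adjusted p = 0.000201). The rising members were Rab10 and Crag, known from follicle cells to direct collagen IV to the basal side. Rab10 was at 218 ± 7.91 TPM in spo and 179.9 ± 3.24 TPM in wild type, and Crag at 55.8 ± 2.24 TPM in spo and 45.9 ± 0.187 TPM in wild type. Without spo replicate 2 the list counted the same 11 lower and 2 higher. Whether this list differed from the 10 matrix genes, or from secretion genes in general, was not tested.

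Of the other secreted matrix proteins, 9 of 9 tested fell (median log2 difference -0.26), beside 27.9% called lower over all tested features. The count was again 9 of 9 without spo replicate 2. Leaving out wild-type replicate 2 reduced the count to 6. The steepest was Glt, glutactin, a basement membrane glycoprotein, at 6.33, 8.32 and 6.76 TPM in spo libraries and 22.8, 22.9 and 23.2 TPM in wild-type libraries (log2 difference -1.57, SE 0.09, limma adjusted p = 1.04e-05). Cow, a secreted proteoglycan gene listed as CG13830, was at 0.788 ± 0.181 TPM in spo and 2.84 ± 0.239 TPM in wild type (log2 difference -1.11, and -1.74 with a pseudocount of 0.1). Tig, tiggrin, an integrin ligand at muscle attachments, was at 61.6 ± 1.31 TPM in spo and 76.4 ± 2.31 TPM in wild type. Mp lay under 1 TPM and was not tested.

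Protease inhibitors and other matrix proteases went both ways, with 3 of 9 higher, 2 lower and 4 not past the threshold (median log2 difference 0.03). Their called share of 55.6% lay near the 61.7% of all tested features, 33.9% higher and 27.9% lower. The largest difference of the list was that of Fur2, a furin protease gene, at 30 ± 1.61 TPM in spo and 17.5 ± 0.174 TPM in wild type (log2 difference 0.75, SE 0.04, limma adjusted p = 1.3e-05). AdamTS-A, a secreted metalloprotease gene, and Reck, an inhibitor gene, rose by 0.20 and 0.17, and the metalloprotease gene Meltrin had a log2 difference of -0.15. The call of Reck was lost without spo replicate 1, spo replicate 3 or any wild-type replicate (limma adjusted p 0.0526 to 0.0682), and that of Meltrin without wild-type replicate 2 (0.056). The count of 5 became 3 without spo replicate 1, spo replicate 3 or wild-type replicate 1, and 2 without wild-type replicate 2.

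Among the 5 related lists, the matrix receptors held the largest difference. Of 11 tested receptor genes, 5 fell, 2 rose and 4 did not pass (median log2 difference -0.08). ItgaPS4, an integrin alpha chain gene, was at 0.625 ± 0.0141 TPM in spo and 5.96 ± 0.142 TPM in wild type (log2 difference -2.10, SE 0.06, limma adjusted p = 1.41e-06). For this scarce transcript the difference depended on the scale, at -3.06 with a pseudocount of 0.1 and -3.24 with voom on rebuilt reads. scb, which encodes the integrin alpha PS3 chain, was at 69.4, 84.6 and 68.6 TPM in spo libraries and 169, 169 and 168 TPM in wild-type libraries. Its fall (log2 difference -1.18, adjusted p = 1.87e-05) was accompanied by that of the integrin beta chain gene Itgbn, at 12.3 ± 1.86 TPM in spo and 27.1 ± 1.13 TPM in wild type.

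The laminin-binding integrin chain gene mew and the dystroglycan gene Dg differed far less, with log2 differences of -0.08 and -0.11, both past the threshold. The main beta chain gene mys rose slightly (log2 difference 0.11), and if, the alpha PS2 chain gene, had a log2 difference of 0.00 (95% interval -0.09 to 0.09, adjusted p = 0.995). The glypican gene dlp was at 179.9 ± 0.866 TPM in spo and 106 ± 1.45 TPM in wild type. Among 11 integrin adhesion adaptors, 4 rose, 3 fell and 4 did not pass (median 0.04). Adaptors and receptors each had 63.6% of their tested genes called, near the 61.7% of all tested features. Of these the talin gene rhea was at 193 ± 2.20 TPM in spo and 229 ± 1.66 TPM in wild type. Fak, which encodes focal adhesion kinase, fell by 0.13 on the log2 scale, and stck and parvin, for partners of integrin-linked kinase, rose by 0.14 and 0.11. Without spo replicate 1 the adaptor count of 7 became 4.

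**Figure D5:**
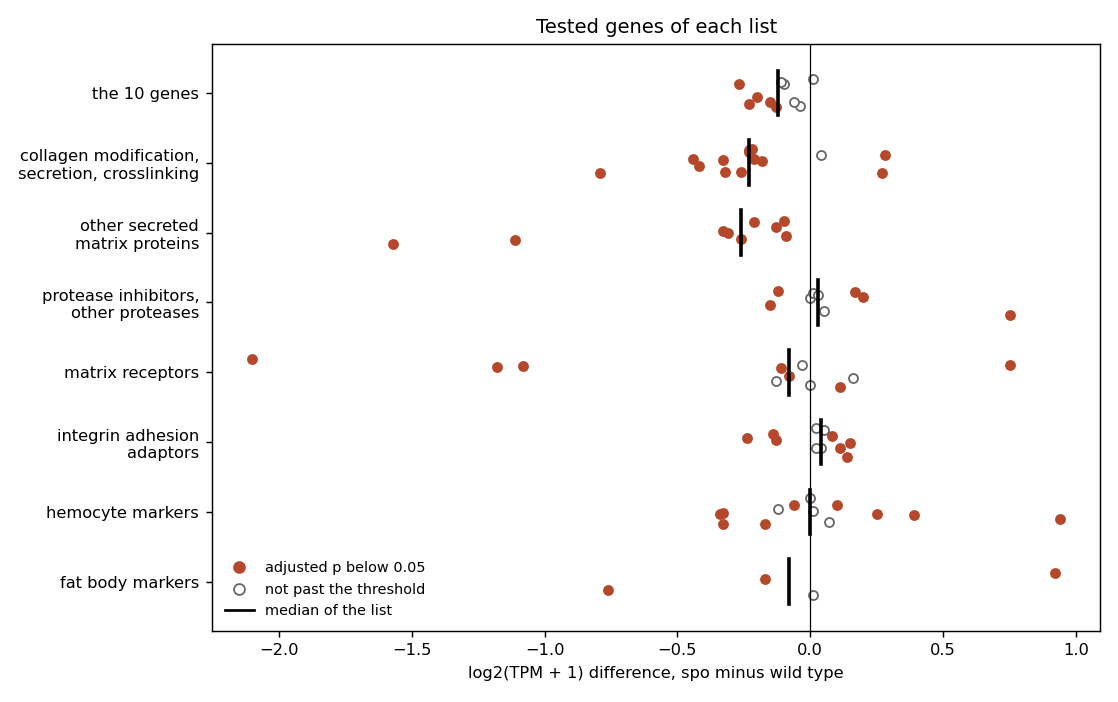
Log2(TPM + 1) difference, spo minus wild type (horizontal axis), of each tested gene in the 10-gene group, in 5 lists of related matrix genes and in 2 lists of cell markers (rows, with vertical scatter for legibility only). Filled points passed an adjusted p of 0.05, open points did not, and the black bar is the median of the list. The 10 genes lie between -0.27 and 0.01, while receptors reach -2.10.

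Markers of the cells known to make basement membrane went both ways. Of 18 hemocyte marker genes 13 were tested, of which 4 rose, 5 fell and 4 did not pass (median log2 difference 0.00). Their summed level was 1260 to 1307 TPM in spo libraries and 1168 to 1184 TPM in wild-type libraries. NimC4 was the largest part of that sum, so the sum does not stand for the markers as a set. The called share of the 13 markers, 69.2%, stood beside 61.7% over all tested features, 33.9% higher and 27.9% lower. The phagocytic receptor genes NimC4 (465 ± 18.9 TPM in spo, 389 ± 4.25 TPM in wild type), crq (75.6 ± 1.54 TPM in spo, 57.6 ± 0.98 TPM in wild type) and Sr-CI (84.4 ± 4.05 TPM in spo, 43.4 ± 0.371 TPM in wild type) rose. Another such receptor gene of the list, drpr, did not pass, at 107 ± 2.17 TPM in spo and 106 ± 2.07 TPM in wild type. Pxn fell, as given above, and so did gcm, a hemocyte and glial fate gene, at 61.4 ± 1.19 TPM in spo and 77.8 ± 1.20 TPM in wild type. The other listed markers past the threshold were gcm2, srp and Pvr, which fell (log2 differences -0.33, -0.17 and -0.06), and PPO1, which rose (0.10). Hml, NimC1, NimC2, eater and He lay under 1 TPM in every library.

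The fat body markers that were tested, 4 of 6 matched, summed to 1421 to 1467 TPM in spo libraries and 1468 to 1528 TPM in wild-type libraries, with 1 higher and 2 lower. The lipid transfer protein gene Mtp fell, to 115 ± 3.20 TPM in spo, against 194 ± 2.91 TPM in wild type (log2 difference -0.76, limma adjusted p = 2.04e-06). Adh, the alcohol dehydrogenase gene, rose to 31.7 ± 3.07 TPM in spo, against 16.3 ± 0.574 TPM in wild type (log2 difference 0.92, adjusted p = 3.95e-05). srp, a GATA factor gene of fat body and hemocytes, was at 48.6 ± 2.77 TPM in spo and 54.9 ± 1.69 TPM in wild type (log2 difference -0.17, adjusted p = 0.0118). apolpp, listed as Rfabg, makes up most of the sum and did not pass, at 1246 ± 23.8 TPM in spo and 1238 ± 27.7 TPM in wild type. Fbp1 and Lsp2 lay under 1 TPM in every library. Calls higher and lower in spo came to 3 and 2 of 8 for glia, 3 and 6 of 10 for somatic muscle, 0 and 1 of 7 for visceral muscle and heart, 1 and 3 of 4 for epidermis, 7 and 0 of 8 for maternal transcripts and 2 and 8 of 10 for ecdysone response genes. The 1 lower gene for visceral muscle and heart is also among the 3 for epidermis. Shares called were 75% for fat body, 62.5% for glia, 90% for somatic muscle, 14.3% for visceral muscle and heart and 87.5% for maternal transcripts. All tested epidermis and ecdysone response genes were called. Over all tested features the share was 61.7%, 33.9% higher and 27.9% lower. The part of cell numbers in the differences of the 10 genes was not tested.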

How the data were processed

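Of the 2 deposited tables, the first holds TPM per feature and library, computed by the authors, per the file headers and values. The second is the authors' deposited table of comparisons, with a log2 fold change, a log2 mean abundance, a test score, a p-value and its adjusted form. Tools named in the submitters' processing notes are edgeR, featureCounts of Subread, STAR 2.5.3a and FastQC 0.11.2, with the build dm6. Strand setting and annotation release are not stated there.

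Old symbols were matched to current ones through RefSeq synonyms (125 of 128 list genes matched). Places and exon lengths come from the Ensembl annotation of the same build. limma 3.58.1 in R 4.3.3 was run with an intensity trend on log2(TPM + 1), a pseudocount of 1, with genotype as the only term, on the 10019 of 15135 features that reached 1 TPM in 3 or more libraries. This scale understates the change of low genes. Benjamini-Hochberg adjustment ran over all tested features. Whole reads were rebuilt from TPM and exon length (tolerance 0.001 reads, with the annotated length sufficing for 94.6% of 14969 features), and counting errors cover counting only. TPM is relative, so a rise of some transcripts lowers the others. Ratios within a library were compared by exact permutation over 6 libraries. The fit was tested on simulated reads. Alternatives were other pseudocounts, filters, scalings, weights, a replicate block, voom on the rebuilt reads, a test against a minimum change and leaving out each library.

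Named are the 10 genes, spo, Hr46, the ratio partners, the nearest profiles, overlapping genes and, by the rule, up to 4 genes past the threshold with the smallest p from each of the 13 lists. The text follows it for the matrix, hemocyte and fat body lists, and gives the glia, muscle, heart, epidermis, maternal and ecdysone lists by counts. Some listed genes that missed the threshold are given with their values. Sec23, Sec24CD, ergic53, Rab10, Crag, mew, Dg, mys, NimC4, gcm2, Pvr and PPO1 passed but lie outside that rule and were chosen after their values were seen. The 10 genes and the lists were chosen with earlier results of these data known. Sequences were not used here.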

Additional observations from a re-analysis of the deposited data

How the results depend on the processing

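The 10 genes were refitted under 15 other settings. Of 149 refits of a single gene, 129 kept direction and side of the threshold, 13 lost a call, 1 gained one and 6 turned the sign. Tested against a log2 change of 0.5, 0 of the 10 genes, 8 of 53 tested related genes (40 in the reported fit) and 870 of all features (6185) were called, since that test asks for a larger change. Without 1 library, 4 of the 10 were called each time, 33 to 39 related genes and 5442 to 6469 features. LanA, LanB1, LanB2 and Mmp2 kept their calls in the 14 settings other than that test, and trol in 6 of 15. Signs turned for vkg with median-of-ratios scaling (-0.01) and without 1 library (-0.03 to 0.08), for SPARC with library weights (0.01) and without 1 library (-0.07 to 0.01), for Rfabg with median-of-ratios scaling (-0.01) and without 1 library (-0.01 to 0.02), and for Timp with library weights (-0.05) and without 1 library (-0.09 to 0.14). The log2 ratio difference of Timp over Mmp1 ran from -0.01 to 0.32 without 1 library. None of these passed a threshold, and the cause was not tested. Same-numbered libraries deviated from their genotype means with correlations of -0.0275, 0.045 and 0.129 across genes. Libraries with different numbers gave -0.107 to 0.0709. Whether libraries of the same number share a batch was not tested. With the replicate block, 4 of the 10 genes, 40 related genes and 6086 features were called, with trol lost (adjusted p = 0.064), and the ratios can reach no p below 0.25. Mmp1 was not tested under the filter of 5 TPM, which it misses. The lowest depth behind the 10 genes, 426 reads for Mmp1, gives a counting error of 4.85%.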
